A study of Homo sapiens with 21 samples.

Results

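SR protein kinases add phosphate to the arginine-serine repeats of splicing factors. Their mRNA was followed in 8 genes, namely CLK1, CLK2, CLK3, CLK4, SRPK1, SRPK2, PRPF4B and DYRK1A. The genes were found by matching these symbols to the Ensembl identifiers of the deposited gene table, and each symbol matched 1 of its 60671 rows. RNA of 21 libraries was sequenced, 3 for each of 7 groups. OCI-AML3 cells, a leukaemic line, were left untreated (0 h), or were kept for 4 h or 24 h in either solvent alone (DMSO) or 1 μg/mL of tunicamycin. HEK293T cells, a non-cancerous line, were treated with DMSO or with the same dose of tunicamycin for 24 h. DMSO is the solvent, tunicamycin blocks N-linked glycosylation and causes endoplasmic reticulum (ER) stress, and no group carried a genetic change beyond those of its line. The labels do not say whether replicates were separate cultures, so p-values measure the spread between these samples, which may be technical. Each line is a single cell line and stands for itself only.

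CLK kinases act in the nucleus, where they release SR proteins from nuclear speckles, the stores of splicing factors. SRPK kinases act largely in the cytoplasm, where they prime SR proteins for import into the nucleus. PRPF4B phosphorylates components of the tri-snRNP, a building block of the spliceosome, and DYRK1A is a speckle-associated kinase with splicing factors among its substrates. CLK1 and CLK4 are also known for transcripts with retained introns that are held in the nucleus and can be spliced later.

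The CLK kinases are named LAMMER kinases after a conserved motif of the kinase domain. The coding stretch at its place is shown first, because it shows how the 4 paralogs differ in a conserved part of the kinase. The stretches of CLK1, CLK2 and CLK4 code for the motif itself, and that of CLK3 codes for a variant of it. Each stretch is 33 bases long and lies in exon 11 of the 13 exons of the canonical transcript (GENCODE release 44, GRCh38). Capitals mark bases that differ from CLK1. The stretches lie at chr2:200854648-200854680 on the minus strand for CLK1, chr1:155264253-155264285 on the minus strand for CLK2, chr15:74628619-74628651 on the plus strand for CLK3 and chr5:178605335-178605367 on the minus strand for CLK4.
CLK1: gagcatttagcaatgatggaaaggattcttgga
CLK2: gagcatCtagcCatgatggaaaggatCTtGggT
CLK3: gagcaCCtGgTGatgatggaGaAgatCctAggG
CLK4: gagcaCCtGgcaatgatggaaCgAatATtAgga
CLK2 differed from CLK1 at 6 of the 33 bases, CLK4 at 8 and CLK3 at 10. Over the whole coding sequence, CLK1 and CLK4 were the closest CLK pair with 78.1% identical aligned bases, and the other CLK pairs had 62.7 to 70.6%. SRPK1 and SRPK2 were 70.3% identical. No 50-base stretch of a canonical transcript of 1 of the 8 genes occurred in another of the 8.

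SRPK1 was less certain. Of the 50-base stretches of its canonical transcript, 42.7% also occurred in transcripts of LHFPL5, a gene on the other strand that overlaps it (SRPK1, chr6:35832966-35921342, minus strand). LHFPL5 held 23.5 to 28.7% of the summed counts of both genes in every library, in both cell lines. Whether the counting used the strand is not given in the sources used here. The other 7 genes shared at most 6.13% of such stretches with any other genes, CLK1 and CLK4 none. The genes lie at chr2:200853009-200864691 (CLK1), chr1:155262868-155278491 (CLK2), chr15:74598500-74645414 (CLK3), chr5:178602664-178630615 (CLK4), chr7:105110704-105399308 (SRPK2), chr6:4021267-4064983 (PRPF4B) and chr21:37365573-37526358 (DYRK1A). The annotation lists 8 retained-intron transcripts among the 14 of CLK1 and 7 among the 13 of CLK4. The counts sum all transcripts of a gene, so spliced and intron-retaining forms were not separated here.

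Libraries held 13838480 to 19961819 counts. Treatment was clear in HSPA5 (BiP, the ER chaperone), whose log2 fold change with tunicamycin was 3.29 ± 0.06 (SE) in OCI-AML3 at 4 h, 3.52 ± 0.06 at 24 h and 2.7 ± 0.06 in HEK293T. DDIT3 (CHOP, a stress transcription factor) changed by 5.36 ± 0.12, 4.33 ± 0.11 and 3.69 ± 0.12. All 7 myeloid markers were higher in each OCI-AML3 library than in any HEK293T library, although MPO reached only 0.98 to 1.66 CPM (counts scaled to library size). All 6 markers chosen for HEK293T were higher in each HEK293T library, although PAX2 and EPCAM reached at most 1.51 CPM.

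All 8 kinases passed the filter on low counts and were tested. Levels are CPM after TMM scaling. A call means that edgeR's quasi-likelihood test, with Benjamini-Hochberg adjustment over 14012 genes, gave an adjusted p no higher than 0.05. The lowest library count was 125, for CLK4, and the highest 5356, for PRPF4B. Between group means, levels differed 3.01-fold for CLK4, 2.80-fold for both SRPK1 and PRPF4B, 2.19-fold for CLK1 and 2-fold for CLK3. They differed 1.94-fold for DYRK1A, 1.43-fold for CLK2 and 1.41-fold for SRPK2. In these bulk samples, fewer transcribing cells and less RNA per cell cannot be told apart.

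**Figure D1:**
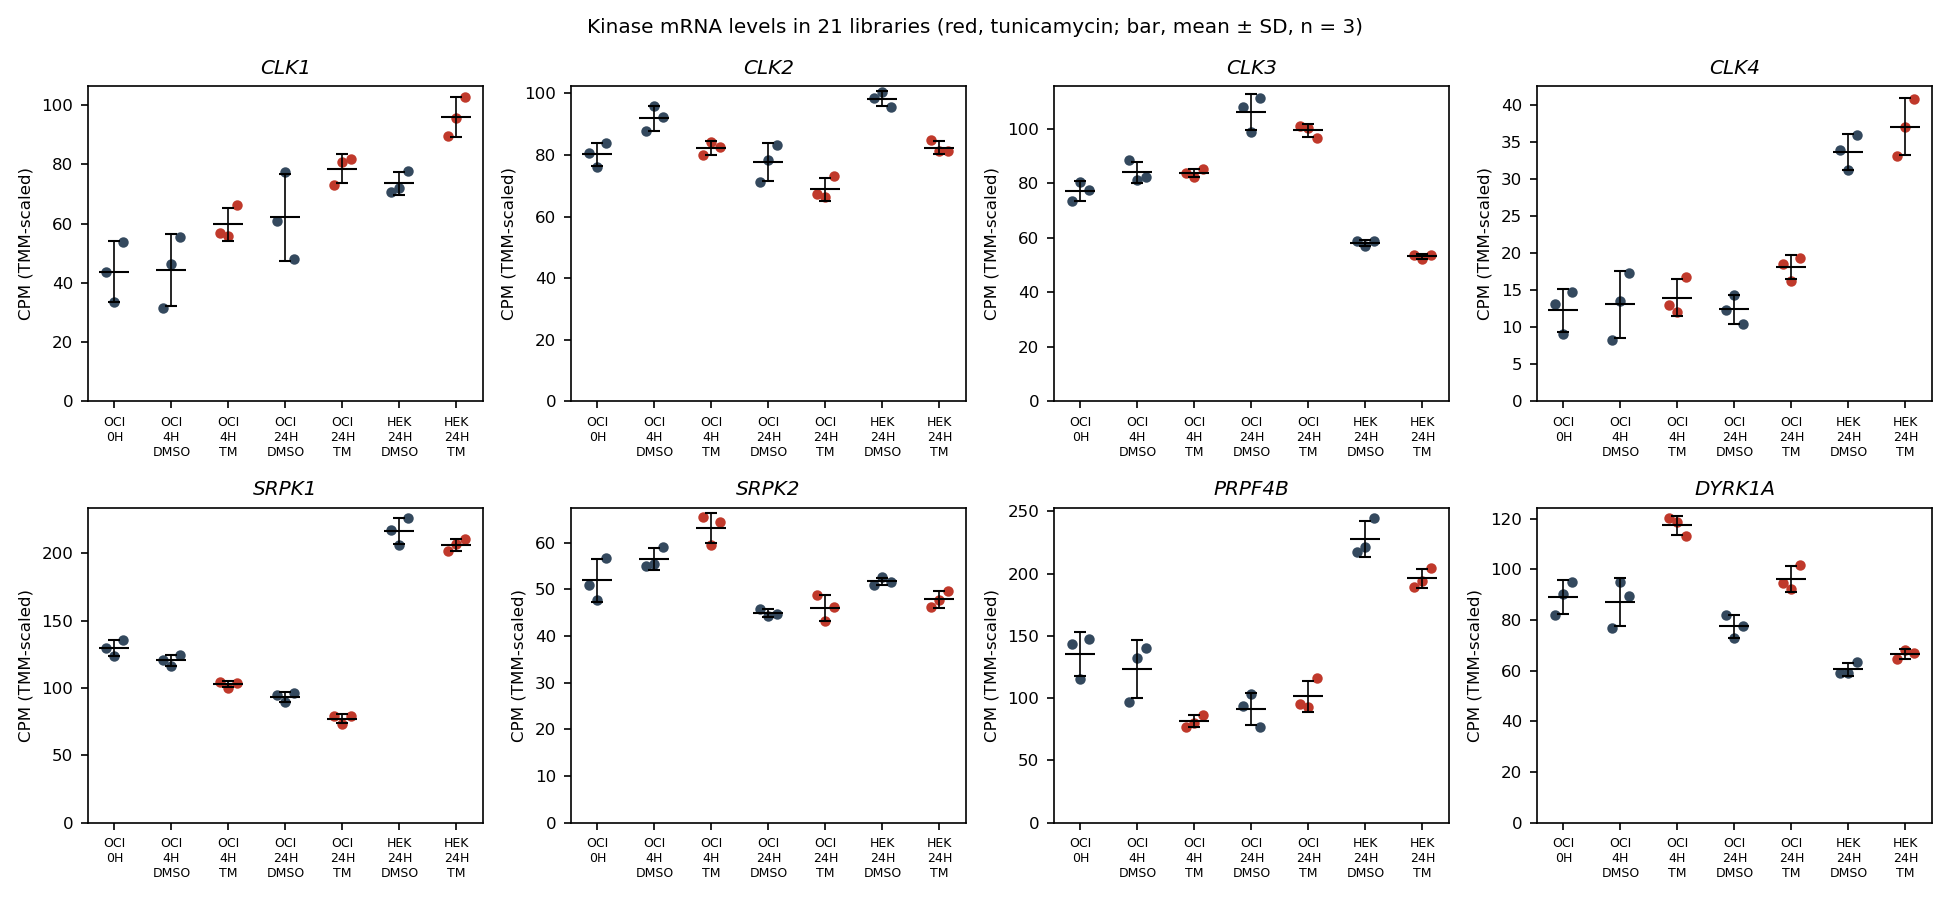
TMM-scaled CPM (vertical axis, from 0) of the 8 kinases in the 7 groups. Points are libraries, red for tunicamycin (TM), and bars are mean ± SD of 3 libraries. CLK4, SRPK1 and PRPF4B sit higher in all HEK293T libraries than in any OCI-AML3 library, and CLK3 and DYRK1A lower.

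Levels between genes were compared per kilobase of transcript. With the longest annotated transcript as the length, OCI-AML3 cells after DMSO for 24 h held most CLK2 (28.8 ± 2.27 CPM per kb, SD, n = 3), followed by SRPK1 (19.6 ± 0.796) and CLK1 (19.3 ± 4.58), which did not differ beyond their spread. PRPF4B (12.1 ± 1.74) and CLK3 (10.1 ± 0.628) came next, then SRPK2 (8.52 ± 0.154), DYRK1A (4.42 ± 0.257) and CLK4 (3.32 ± 0.536). The place of SRPK1 depends on the uncertain split with LHFPL5, which held 31.9 ± 2.56 CPM in this group, against 93.5 ± 3.79 CPM of SRPK1. The place of CLK3 rested on the length used, since its longest transcript is far longer than its canonical one. With canonical lengths, an alternative added after the data had been seen, CLK3 was first at 57.2 ± 3.56 CPM per kb, CLK2 had 36.1 ± 2.85 and CLK1 33.6 ± 7.95. CLK4 and DYRK1A were the lowest in this group under all 3 lengths tried (longest, canonical and total exon length), CLK4 with 4.94 ± 0.797 and DYRK1A with 4.55 ± 0.265 CPM per kb on canonical lengths.

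The first question was whether the kinases' mRNA moved with ER stress. Upon tunicamycin treatment for 4 h in OCI-AML3 cells, DYRK1A rose and SRPK1 and PRPF4B fell. After 24 h, CLK4 and DYRK1A rose and CLK2 and SRPK1 fell, although the calls of CLK4 and CLK2 were lost when some single libraries were left out. In HEK293T cells at 24 h only CLK2 passed the test, lower. The changes were small. The largest called change, that of PRPF4B at 4 h, was 0.659-fold, and none of the 8 reached a log2 fold change beyond 1 in either direction.

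These counts were read against all genes tested. At 4 h, 1 of 8 kinases was called higher and 2 lower, where 18.5% of all genes were higher and 18.9% lower, and 4.92% were also past a log2 fold change of 1. At 24 h, 2 were higher and 2 lower, where 23.5% of all genes were higher and 27.7% lower, with 6.32% past both thresholds. In HEK293T cells, 0 were higher and 1 lower, where 12.6% of all genes were higher and 13.1% lower, with 2.13% past both thresholds. In HEK293T cells 3 of the 8 kinases had an unadjusted p under 0.05, and the DESeq2 Wald test and limma voom also called 0 higher. The fit of the HEK293T libraries alone called CLK1 and DYRK1A higher and 2 kinases lower. It called 5781 of 14012 genes in either direction, where the fit of all groups called 3606. The fit to all genes with at least 1 count called CLK1 higher. The median log2 fold change of the 8 kinases was 0.04, 0.09 and -0.09 in the 3 comparisons, where that of all genes was -0.02, -0.01 and -0.01. By edgeR's counts, the share of kinases called was near that of all genes in OCI-AML3 at both times. In HEK293T cells it was below the share of all genes called in either direction. In OCI-AML3, DESeq2 also called CLK1 and CLK2 at 4 h. Without the third DMSO library, CLK2 and CLK4 were not called at 24 h.

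Of the nuclear CLK kinases, CLK1 had higher mean levels with tunicamycin in all 3 comparisons but did not pass the test in any of them. In OCI-AML3 at 4 h it stood at 31.5, 46.3 and 55.4 CPM in the DMSO libraries and at 56.9, 55.9 and 66.2 CPM with tunicamycin. The lowest tunicamycin library lay just above the highest DMSO library, and the DMSO libraries were widely spread. The log2 fold change was 0.42 ± 0.17 (adjusted p = 0.056). At 24 h, CLK1 stood at 60.8, 77.3 and 48.1 CPM with DMSO and at 72.9, 80.9 and 81.9 CPM with tunicamycin. Here the second DMSO library lay within the tunicamycin group, and the log2 fold change was 0.34 ± 0.17 (adjusted p = 0.097). In HEK293T cells it stood at 70.6, 72.1 and 77.9 CPM with DMSO and at 89.6, 95.5 and 102.9 CPM with tunicamycin, groups that lay well apart. The log2 fold change was 0.38 ± 0.16 (adjusted p = 0.09), with a spread estimated over all 7 groups. A fit of the HEK293T libraries alone, whose CLK1 levels were closer together, called it (0.39, adjusted p = 3.7e-06). The fit to all genes with at least 1 count called CLK1 in all 3 comparisons (adjusted p = 0.00047, 0.0043 and 0.0012). Its log2 fold changes there were no larger (0.39, 0.32 and 0.36), but the SE was 0.09 in each, against 0.17, 0.17 and 0.16 above. At 4 h in OCI-AML3, CLK1 was also called by limma voom (adjusted p = 0.045), by DESeq2 (adjusted p = 0.038), with TMM on totals of all genes (adjusted p = 0.05) and without the third DMSO library (0.62, adjusted p = 0.011). Without the second DMSO library at 24 h it was called too (0.57, adjusted p = 0.01). Over 15 alternatives for each, the value stayed positive, between 0.24 and 0.62 at 4 h, 0.23 and 0.57 at 24 h and 0.33 and 0.43 in HEK293T. Of the 15, 6 called CLK1 at 4 h, 2 at 24 h and 2 in HEK293T. Among the alternatives that did not, adjusted p reached 0.23, 0.27 and 0.23.

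CLK4, the closest paralog of CLK1, rose in OCI-AML3 cells at 24 h. It stood at 12.3, 14.4 and 10.4 CPM with DMSO and at 18.6, 16.2 and 19.4 CPM with tunicamycin. The groups did not overlap, and the log2 fold change was 0.54 ± 0.20 (adjusted p = 0.025). The call was lost without the third DMSO library (0.48, adjusted p = 0.069) and without the third tunicamycin library (0.53, adjusted p = 0.057). At 4 h, CLK4 was 8.31, 13.5 and 17.3 CPM with DMSO against 13, 12.1 and 16.8 CPM with tunicamycin, and the groups overlapped fully (0.08 ± 0.20, adjusted p = 0.78). In HEK293T cells it was 33.9, 31.3 and 36.0 CPM with DMSO against 33.1, 37.1 and 40.9 CPM, again with overlap (0.13 ± 0.17, adjusted p = 0.62).

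CLK2 had lower mean levels with tunicamycin in each comparison, and the call was firmest in HEK293T cells. There it stood at 98.5, 100.5 and 95.6 CPM with DMSO and at 84.9, 81.2 and 81.2 CPM with tunicamycin. The groups did not overlap, and the log2 fold change was -0.25 ± 0.06 (adjusted p = 0.0055), kept on the same side of the threshold by all 15 alternatives. In OCI-AML3 at 24 h, CLK2 was 71.2, 78.5 and 83.4 CPM with DMSO and 67.3, 66.2 and 73.1 CPM with tunicamycin. The groups overlapped, and the call (-0.17 ± 0.07, adjusted p = 0.033) was lost in 11 of 15 alternatives, with DESeq2 (adjusted p = 0.076) among them. Values over those alternatives ran from -0.19 to -0.07. Each of the first 2 tunicamycin libraries and of the last 2 DMSO libraries, left out alone, ended the call, and the value was smallest without the third DMSO library (-0.07, adjusted p = 0.43). At 4 h, CLK2 was 87.8, 95.9 and 92.3 CPM against 80.0, 84.3 and 82.6 CPM, groups apart from each other, with a log2 fold change of -0.16 ± 0.06 (adjusted p = 0.056). DESeq2 (adjusted p = 0.031) and edgeR with DESeq2 size factors (adjusted p = 0.049) called it.

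CLK3 passed the test in none of the 3 comparisons. At 4 h, its levels were 88.4, 81.0 and 82.2 CPM with DMSO and 83.6, 82.2 and 85.2 CPM with tunicamycin (-0.00 ± 0.06, adjusted p = 0.97). The log2 fold change was -0.09 ± 0.06 at 24 h (adjusted p = 0.20) and -0.13 ± 0.06 in HEK293T cells (adjusted p = 0.12). In HEK293T cells its groups did not overlap, with 56.9 to 58.8 CPM after DMSO and 52.2 to 53.6 CPM after tunicamycin, and it was called without TMM scaling (-0.16, adjusted p = 0.038).

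Of the SRPK kinases, SRPK1 fell in OCI-AML3 cells at both times. At 4 h it stood at 120.9, 116.3 and 124.6 CPM with DMSO and at 104.4, 100.2 and 104.0 CPM with tunicamycin (-0.23 ± 0.06, adjusted p = 0.0031). At 24 h it stood at 94.7, 89.3 and 96.6 CPM with DMSO and at 79.3, 73.6 and 79.0 CPM with tunicamycin (-0.27 ± 0.06, adjusted p = 0.00054). The groups did not overlap at either time, and 16 alternatives at each time kept the call. HEK293T libraries held 217.5, 206.4 and 225.9 CPM against 201.4, 206.6 and 210.5 CPM, with overlap (-0.07 ± 0.06, adjusted p = 0.39). LHFPL5, the gene on the other strand, moved with SRPK1 at 4 h (-0.37 ± 0.10, adjusted p = 0.0038) and had a log2 fold change of -0.22 ± 0.10 at 24 h (adjusted p = 0.074). With its counts added to SRPK1, an alternative added after the data had been seen, SRPK1 changed by -0.27 at 4 h (adjusted p = 0.0014), by -0.26 at 24 h (adjusted p = 0.0013) and by -0.07 in HEK293T cells (adjusted p = 0.47).

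SRPK2 passed the test in none of the 3. At 4 h, its levels were 54.9, 55.5 and 59.1 CPM with DMSO and 65.4, 59.4 and 64.5 CPM with tunicamycin. The groups lay just apart, and the log2 fold change was 0.16 ± 0.07 (adjusted p = 0.079). It was 0.04 ± 0.07 at 24 h (adjusted p = 0.70) and -0.11 ± 0.07 in HEK293T cells (adjusted p = 0.26).

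PRPF4B, the tri-snRNP kinase, showed the largest called change of the 8 with tunicamycin, at 4 h. At 4 h it stood at 96.6, 132.7 and 140.7 CPM with DMSO and at 77.1, 80.4 and 86.6 CPM with tunicamycin. All tunicamycin libraries lay below all DMSO libraries, and the log2 fold change was -0.60 ± 0.12 (adjusted p = 0.00048). It ran from -0.73 to -0.50 over 15 alternatives, all called. At 24 h it stood at 93.7, 103.0 and 77.2 CPM with DMSO and at 95.6, 92.9 and 116.1 CPM with tunicamycin, and the groups overlapped (0.15 ± 0.12, adjusted p = 0.31). In HEK293T cells it stood at 217.6, 221.1 and 244.8 CPM against 189.7, 194.2 and 204.8 CPM, which did not overlap (-0.22 ± 0.12, adjusted p = 0.20). The fit of the HEK293T libraries alone called the latter (-0.20, adjusted p = 0.00093). The fit to genes with at least 1 count in total called it as well (-0.23, adjusted p = 0.047).

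DYRK1A rose in OCI-AML3 cells at both times. At 4 h it stood at 76.8, 95.0 and 89.5 CPM with DMSO and at 120.4, 118.7 and 113.1 CPM with tunicamycin, well apart (0.43 ± 0.08, adjusted p = 8.6e-05). At 24 h it stood at 82.0, 72.9 and 77.7 CPM with DMSO and at 94.6, 92.2 and 101.9 CPM with tunicamycin, again without overlap (0.31 ± 0.08, adjusted p = 0.0017). All 15 alternatives at each time kept these calls. In HEK293T cells it stood at 59.0, 59.2 and 63.5 CPM against 64.5, 68.3 and 66.8 CPM, also apart, with a log2 fold change of 0.13 ± 0.08 (adjusted p = 0.21). There, the fit of the HEK293T libraries alone called it (0.15, adjusted p = 0.029).

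**Figure D2:**
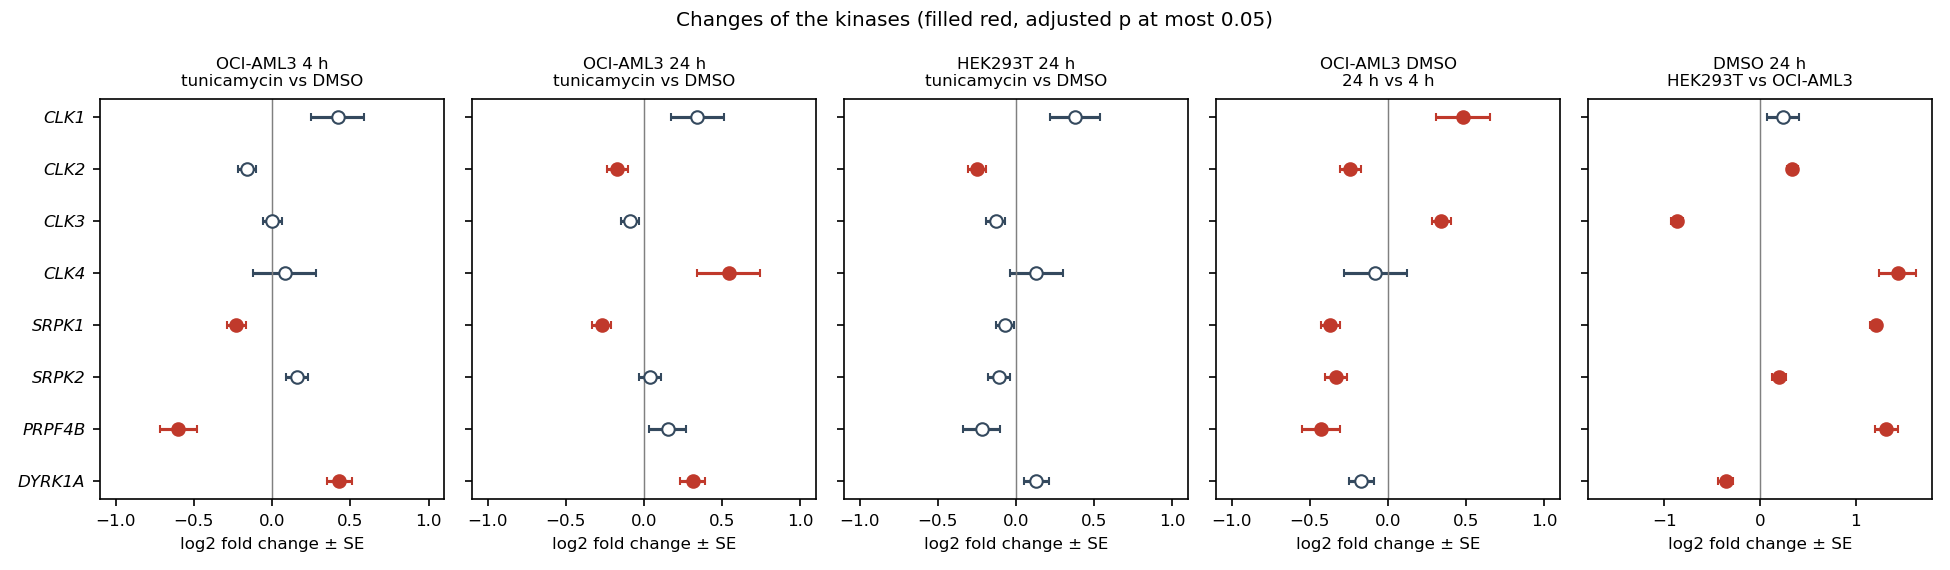
Log2 fold change ± SE (horizontal axis) of the 8 kinases in 5 comparisons, the last on a wider axis. Filled red points passed an adjusted p of 0.05 in edgeR's test. DYRK1A lies to the right and SRPK1 to the left at both times in OCI-AML3, and the differences between lines of CLK4 (1.44), PRPF4B (1.32) and SRPK1 (1.21) are the farthest from 0.

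A second question was whether the effect of tunicamycin depended on time or cell line, for which interaction terms were fitted. Between times in OCI-AML3 cells, 1 of 8 kinases was called, where 35.3% of all genes were. This was PRPF4B, whose change was higher at 24 h than at 4 h by 0.76 ± 0.17 on the log2 scale (adjusted p = 0.0019), and by 0.65 to 0.94 over 21 alternatives, all called. For CLK4 the difference was 0.46 ± 0.28 (adjusted p = 0.21), and it was called without the first DMSO library of 4 h (0.73, adjusted p = 0.015). For the other 6 it lay between -0.12 and -0.01. Between HEK293T and OCI-AML3 at 24 h, edgeR called 0 of 8 kinases, where 26.8% of all genes were called. Of the 8, 2 had an unadjusted p under 0.05, SRPK1 with a difference of 0.20 ± 0.08 (adjusted p = 0.069) and PRPF4B with -0.37 ± 0.17 (adjusted p = 0.12). DESeq2 and limma voom also called 0. PRPF4B was called without the second DMSO library of OCI-AML3 at 24 h (-0.51, adjusted p = 0.041) and without the second tunicamycin library (-0.48, adjusted p = 0.045). CLK4, SRPK1 and DYRK1A passed the test in OCI-AML3 at 24 h and not in HEK293T cells. These differences between the lines were not called by edgeR's interaction test, with -0.41 ± 0.26 for CLK4 (adjusted p = 0.26).

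Time in culture was a further comparison, in which CLK1 and CLK3 rose and CLK2, both SRPK kinases and PRPF4B fell. No untreated cells were kept for 24 h, so time in culture, cell density and length of DMSO exposure cannot be told apart. Between DMSO for 4 h and DMSO for 24 h in OCI-AML3 cells, 2 of 8 were called higher and 4 lower, where 21% of all genes were higher, 21.6% lower and 4.15% past both thresholds. The median log2 fold change of the 8 was -0.21, against -0.02 for all genes. These DMSO libraries are also the controls of the tunicamycin comparisons, so the comparisons share samples. CLK3 rose from 88.4, 81.0 and 82.2 CPM at 4 h to 108.1, 98.6 and 111.3 CPM at 24 h (0.34 ± 0.06, adjusted p = 0.00011), without overlap. CLK1 rose by 0.48 ± 0.17 (adjusted p = 0.027), although its groups overlapped. That call was lost without the first library of 4 h (0.29, adjusted p = 0.13), without the second of 24 h (0.30, adjusted p = 0.19), without TMM scaling (0.36, adjusted p = 0.11) and with the compared groups alone (0.49, adjusted p = 0.076).

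Both SRPK kinases fell with time. SRPK1 changed by -0.37 ± 0.06 (adjusted p = 3.1e-05), and its levels of 89.3 to 96.6 CPM at 24 h lay below those of 116.3 to 124.6 CPM at 4 h. SRPK2 changed by -0.33 ± 0.07 (adjusted p = 0.00069), from 54.9 to 59.1 CPM at 4 h to 44.3 to 45.8 CPM at 24 h. CLK2 fell by 0.24 on the log2 scale (SE 0.07, adjusted p = 0.0046), from 87.8, 95.9 and 92.3 CPM to 71.2, 78.5 and 83.4 CPM, a call lost with the compared groups alone (-0.23, adjusted p = 0.06). PRPF4B changed by -0.43 ± 0.12 (adjusted p = 0.007) with overlapping groups, a call lost without the third library of 4 h (-0.33, adjusted p = 0.058). DYRK1A changed by -0.17 ± 0.08 (adjusted p = 0.08) and was called without the first library of 4 h (-0.25, adjusted p = 0.0098) and without TMM scaling (-0.29, adjusted p = 0.0093). CLK4 changed by -0.08 ± 0.20 (adjusted p = 0.77). Library sizes without TMM moved the median of all genes in this comparison to -0.14, and 31.6% of the calls were then higher against 49.3% with TMM.

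SRPK1 thus had its levels in a clear order in OCI-AML3 cells. From high to low came untreated cells (129.7 ± 6.16 CPM, SD, n = 3), DMSO for 4 h (120.6 ± 4.15), tunicamycin for 4 h (102.9 ± 2.29), DMSO for 24 h (93.5 ± 3.79) and tunicamycin for 24 h (77.3 ± 3.21). Only the first 2 of these neighbours overlapped. CLK1 ran the other way, from untreated cells (43.8 ± 10.2 CPM) and DMSO for 4 h (44.4 ± 12.1) to tunicamycin for 24 h (78.6 ± 4.92), but with overlap between most neighbours. DYRK1A was highest after tunicamycin for 4 h (117.4 ± 3.85 CPM), above all libraries of the other groups, and SRPK2 was highest there too (63.1 ± 3.25 CPM).

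Between untreated cells and DMSO for 4 h, edgeR called 0 of the 8 kinases and 0.0% of all genes. At an unadjusted p under 0.05 there were 1159 genes, with 1 kinase, CLK2, among them. CLK2 stood at 80.5, 76.2 and 83.8 CPM untreated and at 87.8, 95.9 and 92.3 CPM after DMSO (0.20 ± 0.06, adjusted p = 0.48). DESeq2 called 19 genes and limma voom 0, and edgeR called 95 of the 31922 genes with at least 1 count and 26 of the 14012 without the first DMSO library, with 0 kinases in each case.

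The cell lines were compared next. Of the 8 kinases, 5 were higher in HEK293T than in OCI-AML3 cells after DMSO for 24 h and 2 lower, where 40.5% of all genes were higher and 42.2% lower. CLK4, SRPK1 and PRPF4B, 3 of the 8, were higher past both thresholds, where 20.3% of all genes were. CLK4 was 33.9, 31.3 and 36.0 CPM in HEK293T and 12.3, 14.4 and 10.4 CPM in OCI-AML3 (1.44 ± 0.19, adjusted p = 2.5e-07). PRPF4B was 217.6, 221.1 and 244.8 CPM against 93.7, 103.0 and 77.2 CPM (1.32 ± 0.12, adjusted p = 1.0e-09), and SRPK1 differed by 1.21 ± 0.06 (adjusted p = 4.9e-15). CLK3 was lower, with 58.8, 56.9 and 58.7 CPM against 108.1, 98.6 and 111.3 CPM (-0.87 ± 0.06, adjusted p = 5.2e-12). The groups of these 4 genes did not overlap, and all alternatives kept their calls. CLK2 (0.34 ± 0.06, adjusted p = 5.2e-05), SRPK2 (0.20 ± 0.07, adjusted p = 0.011) and DYRK1A (-0.36 ± 0.08, adjusted p = 0.0002) differed less, and CLK1 did not pass the test (0.24 ± 0.17, adjusted p = 0.18). Library sizes without TMM moved the median of all genes from -0.01 to 0.33, and 61.1% of calls were then higher against 49.0%. With that scaling DYRK1A was at -0.01 (adjusted p = 0.90) and CLK1 was called (0.59, adjusted p = 0.0046). CLK1 was also called without the second DMSO library of OCI-AML3 (0.46, adjusted p = 0.019). With all genes of at least 1 count, CLK2 (0.16, adjusted p = 0.15) and SRPK2 (0.02, adjusted p = 0.94) were not called.

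Replicates of a group were not equally close for all kinases. In OCI-AML3 cells after DMSO for 4 h, the coefficient of variation was 34.7% for CLK4, 27.2% for CLK1 and 19% for PRPF4B, and 3.44 to 10.7% for the other 5. Each library's deviation from its group mean in log2 CPM was therefore compared between genes, as a description with no test. Over all 21 libraries, the deviations of CLK1 correlated with those of CLK4 (r = 0.92) and PRPF4B (r = 0.91), and went against those of CLK3 (r = -0.67). The correlation of CLK1 with CLK4 was 0.93 in the 15 OCI-AML3 and 0.89 in the 6 HEK293T libraries, and that with PRPF4B 0.91 and 0.92. With CLK3 it was -0.71 in OCI-AML3 but 0.19 in HEK293T. SRPK1 and SRPK2 deviated together in OCI-AML3 (r = 0.83) and less so in HEK293T (r = 0.16). The points share library, depth and scaling, and genes in a library are not independent.

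**Figure D3:**
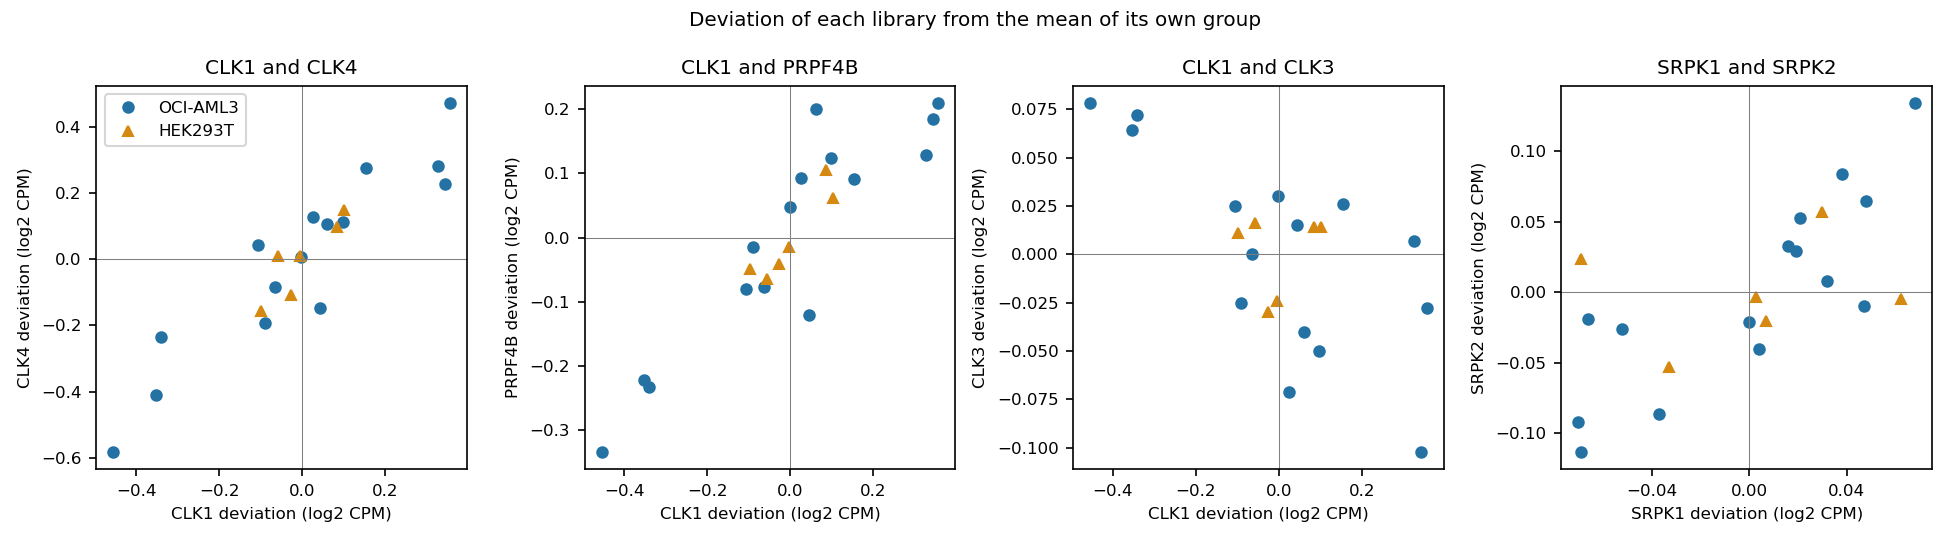
Deviation of each of 21 libraries from its own group's mean, in log2 CPM, for 4 pairs of kinases (circles, OCI-AML3; triangles, HEK293T). CLK1 rises with CLK4 (r = 0.92) and PRPF4B (r = 0.91), and CLK3 runs against it (r = -0.67), with axes that differ in range between panels.

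Nuclear noncoding RNAs moved with these deviations, mainly in OCI-AML3. MALAT1, a transcript of nuclear speckles, had r = 0.81 with CLK1 and 0.86 with PRPF4B over the 21 libraries, and NEAT1, the scaffold of paraspeckles, had 0.79 and 0.88. Within the 6 HEK293T libraries the values for MALAT1 were 0.62 and 0.69, and those for NEAT1 0.01 and 0.18. Within the 15 OCI-AML3 libraries they were 0.81 and 0.87 for MALAT1 and 0.81 and 0.91 for NEAT1. CLK4 had r = 0.77 with MALAT1 and 0.76 with NEAT1 over all libraries, but 0.21 and -0.43 within HEK293T. CLK3 ran against both, with -0.73 and -0.74 over all libraries and -0.19 and -0.35 within HEK293T. In OCI-AML3 cells after DMSO for 4 h, MALAT1 was 30.2, 72.2 and 57.2 CPM in replicates 1, 2 and 3, where CLK1 was 31.5, 46.3 and 55.4 CPM. After DMSO for 24 h it was 44.6, 79.2 and 42.7 CPM, where CLK1 was 60.8, 77.3 and 48.1 CPM. So the same DMSO libraries were low for both, the first at 4 h and the third at 24 h. The share of mitochondrial counts ran from 1.46 to 2.82% over all libraries. In replicates 1, 2 and 3 it was 1.87, 2.41 and 2.45% after DMSO for 4 h, and 1.69, 1.65 and 1.97% after DMSO for 24 h. The deviation of library totals had r = 0.21 with CLK1, 0.14 with CLK4, 0.38 with PRPF4B and -0.43 with CLK3. Within OCI-AML3 these were 0.35, 0.28, 0.52 and -0.61, and within HEK293T -0.39, -0.40, -0.05 and 0.10. The part of nuclear RNA content or RNA quality in the spread of CLK1, CLK4 and PRPF4B was not tested. With tunicamycin for 4 h, where PRPF4B fell, MALAT1 was 28.7, 37.8 and 46.0 CPM, and its mean was 37.5 CPM against 53.2 CPM with DMSO, with overlap. With tunicamycin for 24 h, where CLK4 rose, MALAT1 was 74.4, 69.5 and 102.0 CPM, and its mean was 82.0 CPM against 55.5 CPM with DMSO, again with overlap. NEAT1 did not fall with PRPF4B at 4 h. It was 61.4, 131.5 and 106.6 CPM with DMSO and 81.3, 98.6 and 123.2 CPM with tunicamycin. These tunicamycin libraries all lay within the range of the DMSO libraries. At 24 h the mean of NEAT1 was 97.0 CPM with tunicamycin against 79.4 CPM with DMSO, with overlap. The part of MALAT1 or NEAT1 in the changes of PRPF4B and CLK4 was not tested.

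Because CLK1 and CLK4 varied together, the bases before their transcription starts are shown (RefSeq, GRCh38.p14). Only bases outside all annotated exons of each gene are printed, 217 for CLK1 (chr2:200864692-200864908, minus strand) and 188 for CLK4 (chr5:178627113-178627300, minus strand). The CLK4 stretch lies before a RefSeq start that is inside the gene as GENCODE annotates it. Capitals mark the letters CGTCA, which is the half-site TGACG of the cAMP response element read on the other strand.
CLK1 upstream: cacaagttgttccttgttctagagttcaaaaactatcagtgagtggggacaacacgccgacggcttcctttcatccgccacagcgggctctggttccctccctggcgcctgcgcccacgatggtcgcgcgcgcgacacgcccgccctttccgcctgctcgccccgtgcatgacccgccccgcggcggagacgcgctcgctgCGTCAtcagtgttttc
CLK4 upstream: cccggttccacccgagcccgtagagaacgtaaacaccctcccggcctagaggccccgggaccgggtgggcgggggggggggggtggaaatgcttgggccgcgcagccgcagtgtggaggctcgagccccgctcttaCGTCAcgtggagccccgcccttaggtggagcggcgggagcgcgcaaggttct
The half-site was searched on both strands in 17 windows of 300 bases, from 250 before to 50 after each start, which 7 of the 8 kinases had in the RefSeq table. It was found in 6 windows of 5 kinases (CLK1, CLK3, CLK4, SRPK2 and DYRK1A), and in 24.55% of all 35116 windows. The 2 windows of CLK1 overlap and hold the same match, so windows of a gene are not independent. The stress elements of the unfolded protein response were searched in the same way. The ER stress element (ERSE) and the unfolded protein response element, TGACGTGG, were in 0 of the 17 windows and in 0.08% and 0.73% of all windows. The C/EBP-ATF response element, TGATGNAA, was in 1, of DYRK1A, as TTGCATCA at bases -43 to -36 from a start inside the gene, and in 3.62% of all windows. The full cAMP response element, TGACGTCA, which holds the half-site, was in 0 of 17 and in 1.85% of all windows. A match describes these letters only.

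For each kinase, genes were taken from the 3 with the most similar log2 CPM over the 15 OCI-AML3 libraries, as a description. SRPK1 had the closest, with NCL (r = 0.987), HSPD1 (0.985) and DHX15 (0.983). For CLK1 they were TRIQK (0.947), ZFAND1 (0.941) and NFAT5 (0.933), and for CLK4 RICTOR (0.949), GOLGB1 (0.936) and LMBRD2 (0.926). CLK2 was most like ZNF335 (0.950), SUGP2 (0.929) and WDR90 (0.924), and CLK3 was close to CTDSP1 (0.951) and ENSG00000257607 (0.950). SRPK2 was most like ZNF583 (0.969), TAF3 (0.941) and PCYT1A (0.937). PRPF4B was most like CERKL (0.971), ZNF367 (0.965) and TOPORS (0.964), and DYRK1A like PRRC1 (0.972), MSL2 (0.954) and PPP3R1 (0.940). Among the kinases themselves, CLK1 and CLK4 had r = 0.84, and SRPK1 ran against CLK3 (r = -0.78) and CLK1 (r = -0.77).

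Substrates and partners of the kinases, together with 8 related kinases, were counted in a pathway list, of which 50 genes were tested. The list was chosen with earlier results of these data known. With tunicamycin in OCI-AML3, edgeR called 7 higher and 14 lower at 4 h, and 8 and 21 at 24 h. In HEK293T cells it called 2 higher and 17 lower. Of all genes tested, 18.5% were higher and 18.9% lower at 4 h, 23.5% and 27.7% at 24 h, and 12.6% and 13.1% in HEK293T. List medians (log2) were -0.05, -0.12 and -0.15, where those of all genes were -0.02, -0.01 and -0.01. Between DMSO for 4 h and 24 h, 2 were higher and 26 lower (median -0.27, against -0.02), where 21% of all genes were higher and 21.6% lower. Between untreated cells and DMSO for 4 h, edgeR called 0 in either direction.

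The called genes farthest from 0 in each comparison are named with the lists below or here. With time in DMSO, LUC7L, a component of the U1 snRNP, was the farthest below 0 (-0.84 ± 0.11, adjusted p = 4.2e-06). PPP1CA, a catalytic subunit of protein phosphatase 1 (0.39 ± 0.09, adjusted p = 0.0012), and PPP1R10, its regulator (0.33 ± 0.07, adjusted p = 0.00049), were the only 2 higher. Between HEK293T and OCI-AML3 after DMSO, 34 of the 50 were higher and 9 lower, where 40.5% of all genes were higher and 42.2% lower. The farthest higher were DYRK1B (2.61 ± 0.18, adjusted p = 3.3e-12), PNN (2.35 ± 0.12, adjusted p = 2.5e-14) and LUC7L3 (2.08 ± 0.15, adjusted p = 7.6e-12). The farthest lower were HIPK3 (-1.82 ± 0.12, adjusted p = 2.0e-12), PPP1CA (-1.06 ± 0.09, adjusted p = 1.5e-10) and PPP1R10 (-0.73 ± 0.07, adjusted p = 1.0e-09). The interaction between times called 9 with a higher and 19 with a lower value at 24 h, and that between lines 10 and 6, where 35.3% and 26.8% of all genes were called in either direction. Between times, DYRK1B (1.44 ± 0.32, adjusted p = 0.0014), PNN (0.55 ± 0.17, adjusted p = 0.015), DYRK4 (-0.86 ± 0.18, adjusted p = 0.00083) and CLASRP (-0.64 ± 0.11, adjusted p = 0.00017) were among the farthest, with SRSF1 and PRPF3. Between lines, they were DYRK4, PRPF31 (0.62 ± 0.10, adjusted p = 9.3e-05) and PRPF3 (0.43 ± 0.11, adjusted p = 0.0052) on the higher side. On the lower side they were HIPK3 (-0.82 ± 0.17, adjusted p = 0.001), HIPK2 (-0.47 ± 0.15, adjusted p = 0.023) and DYRK2 (-0.38 ± 0.10, adjusted p = 0.0092).

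Of the 13 tested SR proteins, the substrates proper, 0 were higher and 3 lower at 4 h, where 18.5% of all genes were higher and 18.9% lower. SRSF1, a prototype SR protein, was 520.1, 512.1 and 539.0 CPM with DMSO and 329.0, 334.6 and 358.7 CPM with tunicamycin at 4 h. The groups lay far apart (-0.62 ± 0.06, adjusted p = 4.6e-08). The others were SRSF2 (-0.57 ± 0.07, adjusted p = 3.2e-07) and SRSF5 (-0.31 ± 0.08, adjusted p = 0.0039), both named after their values had been seen. At 24 h, 3 SR proteins were higher and 5 lower, where 23.5% and 27.7% of all genes were. SRSF1 then stood at 340.7 to 383.2 CPM with DMSO and 344.3 to 388.4 CPM with tunicamycin (0.02 ± 0.06, adjusted p = 0.80). The change of SRSF1 differed between the times by 0.64 ± 0.09 (adjusted p = 1.0e-05), the same direction as for PRPF4B. In HEK293T cells, SRSF8 was higher (0.29 ± 0.07, adjusted p = 0.0021) and 2 SR proteins lower, SRSF2 (-0.36 ± 0.07, adjusted p = 0.00022) and SRSF3 (-0.24 ± 0.06, adjusted p = 0.005), the latter 2 named after their values had been seen, where 12.6% of all genes were higher and 13.1% lower. The fit of the HEK293T libraries alone called 3 SR proteins higher and 7 lower, where it called 5781 of 14012 genes in either direction. The fit of all groups called 3606 genes. DESeq2 called 4 SR proteins lower, as did library sizes without TMM. With time in DMSO, 9 of 13 were lower and 0 higher, among them SRSF10 (-0.74 ± 0.11, adjusted p = 1.5e-05) and TRA2B (-0.72 ± 0.06, adjusted p = 5.3e-09), against 21.6% of all genes.

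Among 16 other proteins with arginine-serine domains or in speckles, 2 rose and 6 fell at 4 h, 1 rose and 5 fell at 24 h, and 7 fell and 0 rose in HEK293T cells. The shares of all genes that rose and fell were 18.5% and 18.9%, 23.5% and 27.7%, and 12.6% and 13.1%. The count of 7 in HEK293T cells became 4 without the second DMSO, the second tunicamycin or the third tunicamycin library. The fit of the HEK293T libraries alone gave 10 lower and 2 higher. That fit called 5781 of 14012 genes in either direction, where the fit of all groups called 3606. At 24 h in OCI-AML3 the 1 that rose became 3 without the second DMSO library, 2 without the third DMSO library and 0 without the third tunicamycin library. At 4 h the 2 that rose became 1 when any 1 of the 6 compared libraries was left out. PNN, a speckle and exon junction protein, was 117.5, 156.8 and 163.1 CPM with DMSO and 80.9, 85.7 and 105.4 CPM with tunicamycin at 4 h (-0.69 ± 0.12, adjusted p = 8.2e-05). In HEK293T cells, SRRM1, a splicing coactivator (-0.44 ± 0.07, adjusted p = 7.9e-05), and U2AF2, which binds the polypyrimidine tract (-0.41 ± 0.07, adjusted p = 0.00024), were the farthest below 0 among the called genes of the pathway list.

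For 6 of the 7 tri-snRNP partners of PRPF4B, the change with tunicamycin was lower at 24 h than at 4 h by edgeR's interaction test, where 35.3% of all genes were called in either direction and PRPF4B had the opposite sign. At 4 h, 1 of 7 was higher, PRPF3 (0.25 ± 0.07, adjusted p = 0.011), and 2 were lower, PRPF4 (-0.40 ± 0.06, adjusted p = 1.1e-05) and PRPF31 (-0.25 ± 0.07, adjusted p = 0.007), named here after their values at 4 h had been seen. The call of PRPF3 was lost in the fit to all genes with at least 1 count. At 24 h all 7 were lower, with a median of -0.59, and in HEK293T cells 5 of 7 (median -0.25), where 27.7% and 13.1% of all genes were lower. At 4 h these shares were 18.5% higher and 18.9% lower. Of these, PRPF31 (-0.69 ± 0.07, adjusted p = 6.9e-08), EFTUD2 (-0.67 ± 0.07, adjusted p = 5.1e-08) and PRPF3 (-0.64 ± 0.08, adjusted p = 5.9e-07) were farthest from 0 at 24 h. PRPF3 stood at 74.4, 72.3 and 74.3 CPM with DMSO and at 41.8, 44.8 and 55.2 CPM with tunicamycin for 24 h, where PRPF4B overlapped between the groups. For PRPF3 the change was lower at 24 h than at 4 h by 0.88 on the log2 scale (-0.88 ± 0.11, adjusted p = 2.1e-06), the opposite sign to PRPF4B. All alternatives called 7 of 7 lower at 24 h, and 3 to 6 in HEK293T cells, with 3 when any 1 of the 6 HEK293T libraries other than the second DMSO library was left out.

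**Figure D4:**
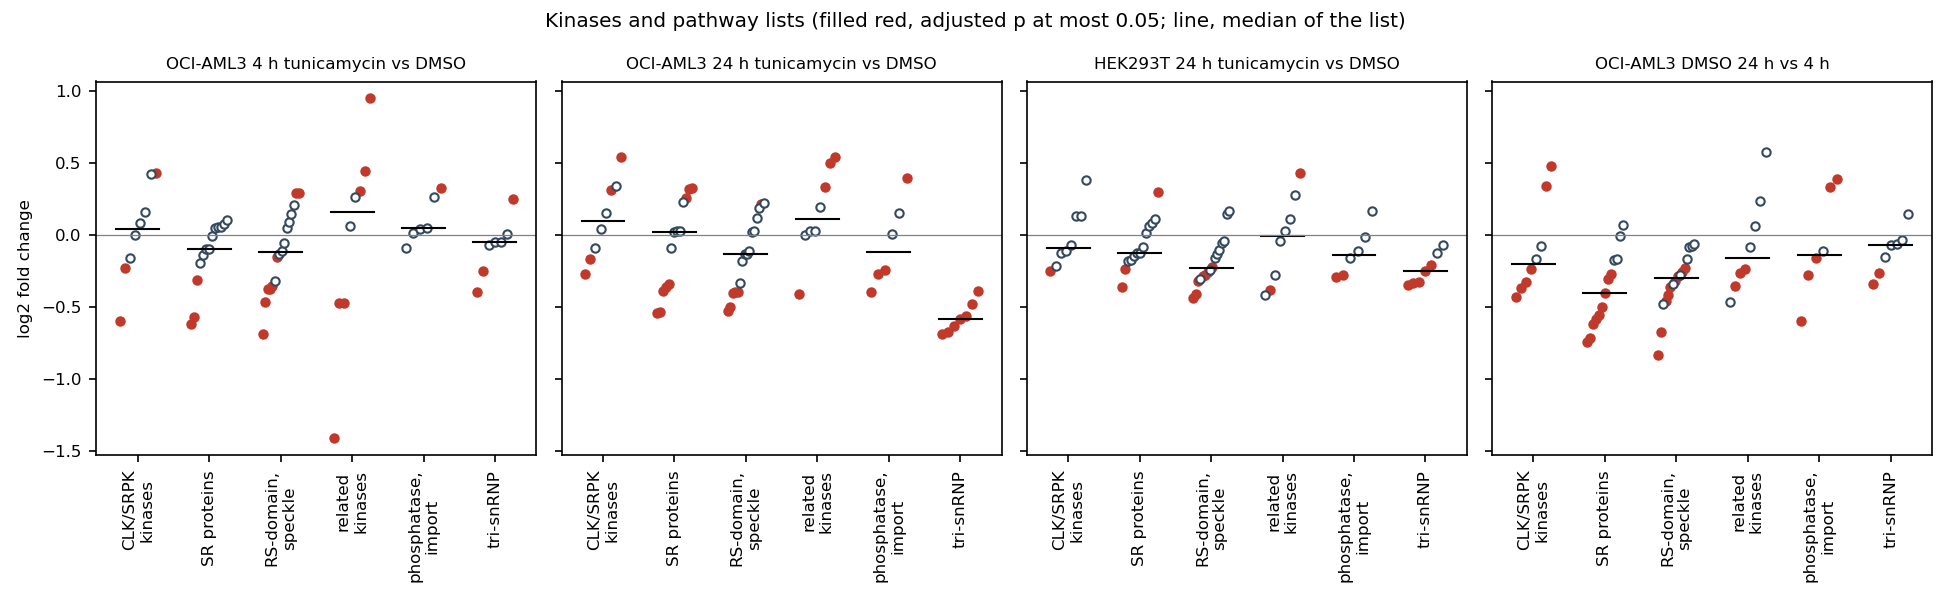
Log2 fold change (vertical axis) of the 8 kinases and of 5 lists of pathway genes in 4 comparisons. Each point is a gene, filled red where called, and the line is the median of the list. All 7 tri-snRNP genes lie below 0 in OCI-AML3 at 24 h, with a median of -0.59, and 9 of 13 SR proteins are called lower with time in DMSO.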

How the data were processed

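Polyadenylated RNA of 21 libraries was analysed. The authors trimmed paired-end reads, aligned them to GRCh38 with STAR and deposited RSEM expected counts per gene on Ensembl release 101, neither scaled nor filtered. RSEM divides reads that fit several genes between them. All 21 columns matched a sample, 3.54 to 4.22% of a library's values were not whole, and all were rounded. Totals were 13838480 to 19961819 counts, and of the kinases CLK4 had the lowest counts.

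Genes reaching 1 CPM in 8 or more libraries were kept. After TMM scaling, edgeR 4.0.16 under R 4.3.3 fitted 7 group means, with no replicate block. Adjusted p-values are Benjamini-Hochberg over 14012 genes, and the SE was obtained from the log2 fold change and the F statistic, as their quotient after taking the root of F. Log2 CPM used a prior count of 2. Positions and lengths are from GENCODE release 44, promoters from RefSeq (GRCh38.p14). Members and lists were chosen with earlier results of these data known. All 8 members are named, and of the pathway list the 3 genes farthest from 0 in each direction among those called, in each comparison. Others are said to be named after their values had been seen. Alternatives were limma voom 3.58.1, DESeq2 1.42.0, DESeq2 size factors, no TMM, 2 other filters, the compared groups alone, a replicate block and leaving out each library. Chosen after seeing the data were TMM on totals of all genes, canonical lengths and SRPK1 with LHFPL5. Data were simulated for the 4 h comparison (14012 genes, 50 changed by each fold). There, 44% of 1.35-fold, 60% of 0.65-fold, 96% of 2-fold and 86% of 0.5-fold changes were recovered, with 5 false calls. In the real comparison 18.5% of genes were called higher and 18.9% lower, far more than were changed in the simulation. The adjustment therefore acts differently there, and these shares are not recovery rates of the real test. Isoforms and splicing events were not analysed here. For CLK3, 1 of the 3 genes with the most similar levels is not reported here.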

Additional observations from a re-analysis of the deposited data

Results flagged for a closer look

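PRPF4B stood out because its change with tunicamycin differed between the times in OCI-AML3 cells. The change was -0.60 ± 0.12 (SE) at 4 h and 0.15 ± 0.12 at 24 h on the log2 scale, a difference of 0.76 ± 0.17 (adjusted p = 0.0019 in edgeR's interaction test). The DMSO level itself was 123.3 ± 23.5 CPM (SD, n = 3) at 4 h and 91.3 ± 13.1 CPM at 24 h, and the level with tunicamycin 81.4 ± 4.85 and 101.5 ± 12.7 CPM. MALAT1, whose deviations correlated with those of PRPF4B in the 15 OCI-AML3 libraries (r = 0.87), had means of 53.2 CPM with DMSO and 37.5 CPM with tunicamycin at 4 h, and 55.5 and 82.0 CPM at 24 h. NEAT1, whose deviations had r = 0.91 with those of PRPF4B in these libraries, showed no fall at 4 h. It ran from 61.4 to 131.5 CPM with DMSO and from 81.3 to 123.2 CPM with tunicamycin. At 24 h its means were 79.4 CPM with DMSO and 97.0 CPM with tunicamycin. The part of MALAT1 or NEAT1 in the difference of PRPF4B was not tested.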

How the results depend on the processing

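The 8 kinases gave 1064 values under alternatives, of which 1013 stayed on the same side of the threshold. Of the others, 23 lost a call, 28 gained one and 0 called values changed sign.

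At 4 h in OCI-AML3, 3 kinases were called, and 5 with DESeq2 and with the replicate block. At 24 h, 4 were called, and 2 to 4 when 1 library was left out, with 2 without the third DMSO library. In HEK293T, 1 was called, against 2 without TMM, 3 with all genes of at least 1 count and 4 with the HEK293T libraries alone, where calls over all genes rose from 3606 to 5781. The interaction between times called 1, and 2 with all genes of at least 1 count. Leaving out 1 library it called 1 to 2, with 2 without the first DMSO library of 4 h. The interaction between lines called 0, and 1 with all genes of at least 1 count, with the compared groups alone and with the replicate block. Leaving out 1 library it called 0 to 1, with 1 without the second DMSO or the second tunicamycin library of OCI-AML3 at 24 h. The cause was not tested. Library sizes without TMM changed the share of calls that were higher from 42.6 to 56.2% for the interaction between times and from 59.4 to 41.0% for that between lines.

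Replicate numbers did not pair the samples. Deviations of libraries with the same number correlated between -0.14 and 0.20 over 18 pairs, above 0.1 in 3, and 9 of 18 correlated best with their own number. With the replicate block, SRPK1 was called in the interaction between lines (0.21, adjusted p = 0.029), and CLK1 (0.43, adjusted p = 0.039) and CLK2 (-0.16, adjusted p = 0.049) at 4 h.

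CLK4 had the fewest counts of the kinases, with 125 to 356 in OCI-AML3 libraries. The part of depth in its spread was not tested. Gene counts cannot show isoforms or kinase activity.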

Other observations

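Kinases related to the 8 are SRPK3, a paralog of SRPK1 and SRPK2, and 7 tested members of the DYRK and HIPK families. Of 8 tested, 3 rose and 3 fell in OCI-AML3 at 4 h, 3 rose and 1 fell at 24 h, and 1 rose and 1 fell in HEK293T. The shares of all genes that rose and fell were 18.5% and 18.9%, 23.5% and 27.7%, and 12.6% and 13.1%. The 1 that fell at 24 h became 0 without the first DMSO, the first tunicamycin or the third tunicamycin library, and the 1 that rose in HEK293T became 0 without the third tunicamycin library. HIPK1, a nuclear kinase, stood at 109.2, 138.1 and 125.8 CPM with DMSO and at 253.0, 222.9 and 243.8 CPM with tunicamycin for 4 h, well apart (0.95 ± 0.08 SE, adjusted p = 2.7e-09 in edgeR's test). Its change was smaller at 24 h (0.33 ± 0.08, adjusted p = 0.0018), by a difference of -0.62 ± 0.11 (adjusted p = 0.00023), and -0.04 ± 0.08 in HEK293T (adjusted p = 0.76). DYRK1B, a paralog of DYRK1A, was the only pathway gene past a log2 fold change of 1 at 4 h, and in the opposite direction to DYRK1A. It stood at 2.19, 2.30 and 3.09 CPM with DMSO and at 0.90, 0.82 and 1.16 CPM with tunicamycin (-1.41 ± 0.23, adjusted p = 3.6e-05), on 14 to 54 counts a library. At 24 h it was 0.03 ± 0.22 (adjusted p = 0.94). At 24 h in OCI-AML3, HIPK3 (0.54 ± 0.11, adjusted p = 0.00044) and HIPK2 (0.50 ± 0.11, adjusted p = 0.00049) were the farthest higher of the pathway genes called. In HEK293T, DYRK2 was the 1 that fell (-0.38 ± 0.07, adjusted p = 0.00026). DYRK4 was higher at 4 h (0.44 ± 0.12, adjusted p = 0.0071), lower at 24 h in OCI-AML3 (-0.41 ± 0.13, adjusted p = 0.011) and higher in HEK293T (0.43 ± 0.12, adjusted p = 0.01), and its change differed between the lines by 0.84 ± 0.18 (adjusted p = 0.0012).

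Of 6 genes for SR protein phosphatases and import, 1 rose and 0 fell at 4 h, 1 rose and 3 fell at 24 h. In HEK293T, 2 fell and 0 rose. Of all genes, 18.5% rose and 18.9% fell at 4 h, 23.5% and 27.7% at 24 h, and 12.6% and 13.1% in HEK293T. The 1 that rose became 2 without the third DMSO library at 4 h and without the second at 24 h. The fit of the HEK293T libraries alone gave 4 that fell and 1 that rose. That fit called 5781 of 14012 genes in either direction, where the fit of all groups called 3606. PPP1R10, a regulator of protein phosphatase 1, was the 1 higher at 4 h (0.32 ± 0.07, adjusted p = 0.00063), and PPP1CB, a catalytic subunit, the 1 higher at 24 h (0.40 ± 0.12, adjusted p = 0.0073).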
